A study of Mus musculus with 4 samples.

Results

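The genes described here are mt-Nd1, mt-Nd2, mt-Nd4, mt-Nd5, mt-Nd6, mt-Co1, mt-Co2, mt-Co3, mt-Cytb and mt-Atp6, which are 10 of the 13 protein-coding genes of the mouse mitochondrial genome. They were found by symbol among the 37310 genes of the expression table, and each of the 10 matched an Ensembl identifier on the mitochondrial chromosome (chrM). Their expression was compared by mRNA-seq between JM8 wild-type (WT) mESCs, a line from the C57BL6/N strain, and Bmal1-/- mESCs made from it. The Bmal1-/- line is 1 clone obtained with CRISPR/Cas9, with both alleles mutated in exon 5 of Bmal1, the gene of a core transcription factor of the circadian clock. All cells, WT included, grew without feeder cells in serum-free N2B27 medium with LIF, the Mek inhibitor PD0325901 (1 µM) and the Gsk3 inhibitor CHIR99021 (3 µM), and each line gave 2 biological replicates. Because each label stands for 1 line, other differences between these lines cannot be told apart from the genotype. The table holds normalized values, which are read counts divided by a scaling factor of each library (trimmed mean of M values, TMM).

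Mitochondria keep a small circular genome of their own, whose proteins are all parts of oxidative phosphorylation. Complex I takes electrons from NADH, complex III passes them to cytochrome c, complex IV hands them to oxygen, and complex V uses the proton gradient so built to make ATP. The Nd genes encode membrane subunits of complex I, mt-Cytb encodes the cytochrome b of complex III, the Co genes encode the core of complex IV, and mt-Atp6 encodes a part of the proton channel of complex V. Complex II has no mitochondrially encoded subunit. A dedicated polymerase, Polrmt, reads the circle into long transcripts that are cut at the tRNAs between the genes, so that most mRNAs come from a shared precursor and differ afterwards in processing and stability. Embryonic stem cells hold many copies of this genome per cell, and a lower level in bulk RNA can mean fewer mitochondrial genomes or less RNA from each, which cannot be told apart here.

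Reads on genes ranged from 21504265 to 23329034 per library, and 3 reads, used as the floor, corresponded to normalized values of 2.82 to 3.19. Bmal1 itself, listed as Arntl, had values of 678 and 733 in WT and 556 and 590 in the libraries labelled Bmal1-/-. These groups did not overlap, and Arntl was called lower (log2 fold change −0.30, adjusted p = 0.00113, limma), with its mRNA present in all 4 libraries. The study itself reported no detectable Bmal1 by RT-qPCR or by Western blot in its Bmal1-/- cells. A read count over the gene does not show whether the mRNA encodes a functional protein. All 8 embryonic stem cell markers examined were expressed, with summed values of 154053 and 156415 in WT and 158656 and 160517 in Bmal1-/-. These sums join members that moved in opposite directions, 5 called lower and 3 higher, with log2 fold changes from −0.17 to 0.40. Of 7 fibroblast markers, 5 (Col1a2, Col3a1, Dcn, Lum and Postn) were at or under the floor in all libraries. The summed value of these 7 was 69.5 and 75.4 in WT and 108 and 97.3 in Bmal1-/-. The summed value of 5 neural markers, of which Fabp7 was at 0, was 4130 and 3872 in WT and 2468 and 2283 in Bmal1-/-. Tubb3 (log2 fold change −1.22) and Pax6 (−1.71) were called lower, and Nes and Olig2 were not called. The summed value of 5 primitive endoderm markers was 165 and 181 in WT and 182 and 178 in Bmal1-/-, a sum of members that moved in opposite directions. Among them Sox7 had a log2 fold change of −2.41, Sox17 one of 1.27 and Gata4 one of 0.55, all called. The nuclear noncoding RNA Malat1 was higher in Bmal1-/- (log2 fold change 0.83) and Neat1 was lower (−0.73). The part of these differences in the results that follow was not tested.

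Only 7 of the 10 members carried more than a few reads. mt-Co2, mt-Co3 and mt-Atp6 held between 0 and 3 reads in every library, although the members on either side of them, mt-Co1 and mt-Nd4, had normalized values of 25629 or more in every library. These genes share a feature of sequence. In the NCBIM37 assembly (mm9, the build of the files), bases 6390 to 11042 of the mitochondrial genome recur on chromosome 1, at chr1:24618374-24623027 on the minus strand, with 99.936% identity over 4654 aligned bases. Such nuclear insertions of mitochondrial DNA are common in mammalian genomes. The copy differs from the mitochondrial genome by 2 mismatches and 1 extra base. Numbered from the first base of the mitochondrial genome, the mismatches are A6393T, in mt-Co1, and T9461C, in mt-Nd3. The start of mt-Co2 is shown with its chromosome 1 counterpart, since 75 bases was the read length, with the start codon in capitals:
mt-Co2 (chrM:7013-7087, plus strand): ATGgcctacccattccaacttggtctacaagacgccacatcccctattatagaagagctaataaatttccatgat
copy (chr1:24622330-24622404, minus strand): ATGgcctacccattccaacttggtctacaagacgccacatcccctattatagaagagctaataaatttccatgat
These 75 bases are the same in both places. A read that lies within them, taken without its mate, thus matches the mitochondrial gene and the nuclear copy equally well.

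The copy begins inside mt-Co1 and ends inside mt-Nd4, both of which kept many reads. The edges are shown with the copied bases in capitals, to mark where sequence of these members stops being shared with the nucleus:
mt-Co1 (chrM:6370-6409, plus strand): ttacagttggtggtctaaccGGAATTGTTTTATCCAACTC
copy (chr1:24623008-24623047, minus strand): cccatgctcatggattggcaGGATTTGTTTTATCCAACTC
mt-Nd4 (chrM:11023-11062, plus strand): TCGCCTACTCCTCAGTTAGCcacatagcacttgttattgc
copy (chr1:24618354-24618393, minus strand): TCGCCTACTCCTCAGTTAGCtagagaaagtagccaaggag
The mismatch in mt-Nd3 is shown in capitals with 20 bases on each side. mt-Nd3 starts at base 9459, so most of the bases before the mismatch belong to the tRNA gene mt-Tg, which ends at 9458:
mt-Nd3: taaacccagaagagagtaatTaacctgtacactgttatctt
copy: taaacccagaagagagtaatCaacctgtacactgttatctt
The mismatch lies near the start of mt-Nd3 and leaves 3 of its 274 windows of 75 bases without an exact nuclear copy.

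The share of such windows without an exact copy elsewhere in the genome separated the members. It was 100% in mt-Nd1, mt-Nd6 and mt-Cytb, 98.3% in mt-Nd5, 94.3% in mt-Nd2, 60.2% in mt-Co1 and 38.5% in mt-Nd4. It was 0% in mt-Co2, mt-Atp6 and mt-Co3. Of the other 3 mitochondrial protein genes, mt-Atp8 and mt-Nd4l had 0% and mt-Nd3 had 1.09%, and all 3 held 0 or 1 read per library. All 6 protein-coding genes that lie wholly within the copied stretch were at or under 3 reads, and the 7 that reach outside it were the 7 with reads. How the authors' pipeline treated reads with more than 1 match is not given in the sources used here. Genes annotated within the nuclear copies held few reads. Gm10222, opposite mt-Nd4l on chromosome 1, had values of 29.5 and 58.4 in WT and 58.2 and 50.5 in Bmal1-/-. Gm10925, opposite mt-Atp8 and mt-Atp6 on chromosome 1, had 2.11 and 6.37 in WT and 4.70 and 6.68 in Bmal1-/-. Gm13340 and Gm13341, in a second copy on chromosome 2 (97.362% identity, 72 mismatches over 3260 aligned bases), had values between 13.2 and 28.6. The part of the copy in the near-zero values of mt-Co2, mt-Co3 and mt-Atp6 was not tested. At or under the floor in all libraries, these 3 members give no measure of their mRNA and no fold change.

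**Figure D1:**
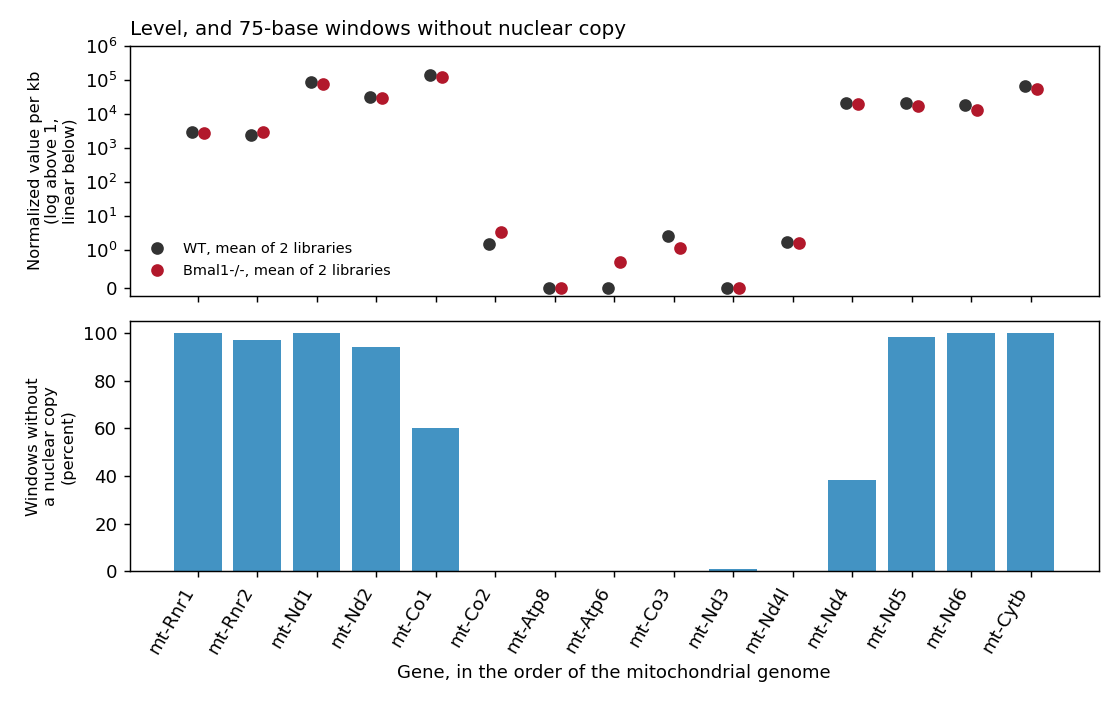
Top, mean normalized value per kb of gene length in WT and Bmal1-/- (2 libraries each) for the 13 protein-coding genes and 2 rRNAs in genome order, on an axis that is logarithmic above 1 and linear below. Bottom, the percent of 75-base windows of each gene without an exact nuclear copy. The 6 genes from mt-Co2 to mt-Nd4l have at most 1.09% of such windows and lie near 0, between mt-Co1 (137592 per kb in WT) and mt-Nd4 (21293).

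Among the 7 members with reads, levels covered about an order of magnitude. On the scale of normalized value per kb, the WT means were 137592 for mt-Co1, the catalytic subunit of complex IV, 85094 for mt-Nd1, 66911 for mt-Cytb and 30908 for mt-Nd2. They were 21293 for mt-Nd4, 20896 for mt-Nd5 and 18007 for mt-Nd6. Because mt-Co1 and mt-Nd4 overlap the chromosome 1 copy, levels were also set against the windows without an exact copy. On that scale, per 1000 such windows, mt-Co1 had 220659 and 259747 in the WT libraries and mt-Nd4 had 52177 and 64721. This placed mt-Nd4 above mt-Nd2 (35097 and 35491) rather than below it. The windows treat each read alone, but reads came in pairs, and a mate outside the copy may place a read inside it. The scale may thus overstate mt-Co1 and mt-Nd4, and the order of mt-Nd4 and mt-Nd2 is uncertain. mt-Nd5 (20371 and 23923) and mt-Nd6 (17815 and 24189) overlapped in WT and were the only neighbours in the order that did. The order on this scale in Bmal1-/- was the same, and there mt-Nd5 (19713 and 16689) lay above mt-Nd6 (15963 and 13747) in both libraries. All 7 exceeded the nuclear partners of their complexes per kb. The nuclear subunits of complex I ranged from 15.5 to 3488 per kb in WT, with a median of 1338, those of complex III from 1361 to 6362 and those of complex IV from 1102 to 17403.

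The comparison between genotypes asked how each member differed in Bmal1-/- cells. All 7 tested members had a mean below that of WT, 5 of them past the test, and no difference reached 2-fold. The largest was that of mt-Nd6, the only member encoded on the other strand of the circle, whose mean in Bmal1-/- was 70.7% of WT. mt-Nd5, mt-Cytb, mt-Nd1 and mt-Co1 fell to between 82.2% and 90.8%, and mt-Nd2 was at 98.0%. The test was limma on log2(value + 1), fitted to 14510 genes whose mean value reached 10, with Benjamini-Hochberg adjustment over all of them and a call at an adjusted p-value below 0.05. Fold changes are given with their standard error (SE) after ±.

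In complex I, mt-Nd1, a subunit near the quinone site, had normalized values of 77320 and 85549.5 in WT and 71887 and 73207 in Bmal1-/-. The values did not overlap, with a log2 fold change of −0.16 ± 0.04 (adjusted p = 0.0035). mt-Nd2, one of the proton-pumping subunits, had 31903 and 32261 in WT and 30947.5 and 31957 in Bmal1-/-. These overlapped, with a log2 fold change of −0.03 ± 0.04 (adjusted p = 0.54). mt-Nd4, also a proton-pumping subunit, had 26193 and 32490 in WT and 27263 and 25629 in Bmal1-/-. Its WT libraries lay on either side of 1 Bmal1-/- library, and its log2 fold change of −0.14 ± 0.06 did not pass the test (adjusted p = 0.062). mt-Nd5, at the far end of the membrane arm of complex I, had 35058 and 41172 in WT and 33926 and 28721 in Bmal1-/-. Its groups did not overlap, although WT replicate 1 and Bmal1-/- replicate 1 lay close together, and the log2 fold change was −0.28 ± 0.06 (adjusted p = 0.00088). mt-Nd6 had 7927.5 and 10764 in WT and 7104 and 6117 in Bmal1-/-, with no overlap, a log2 fold change of −0.49 ± 0.09 and an adjusted p of 7.97e-05.

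mt-Nd6 and mt-Nd5 are encoded on opposite strands and overlap at their ends, and the overlap is shown in capitals as the pair with the 2 lowest log2 fold changes of the members:
mt-Nd5 and mt-Nd6 (chrM:13542-13575, plus strand): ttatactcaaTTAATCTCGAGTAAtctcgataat
The last capitals, TAA, are the stop codon of mt-Nd5, and the first, TTA, are that of mt-Nd6 read on the other strand. The library kit keeps strand, but whether the counting used it is not given in the sources used here. Without it, reads of mt-Nd6 and reads of any RNA from the strand of mt-Nd5 across it, precursor or mature, cannot be told apart. The value of mt-Nd6, and so its fold change, is therefore uncertain.

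In complex III, mt-Cytb, which carries electrons between the quinone sites, had 73035 and 80057.5 in WT and 64962 and 62651 in Bmal1-/-. The groups did not overlap and the log2 fold change was −0.26 ± 0.04 (adjusted p = 3.76e-05). In complex IV, mt-Co1, which holds the site where oxygen is reduced, had 195283 and 229876 in WT and 193799 and 192052 in Bmal1-/-. WT replicate 1 lay close to both Bmal1-/- libraries, and the log2 fold change of −0.14 ± 0.05 passed the test narrowly (adjusted p = 0.0415). For complex V, no mitochondrially encoded subunit could be compared.

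**Figure D2:**
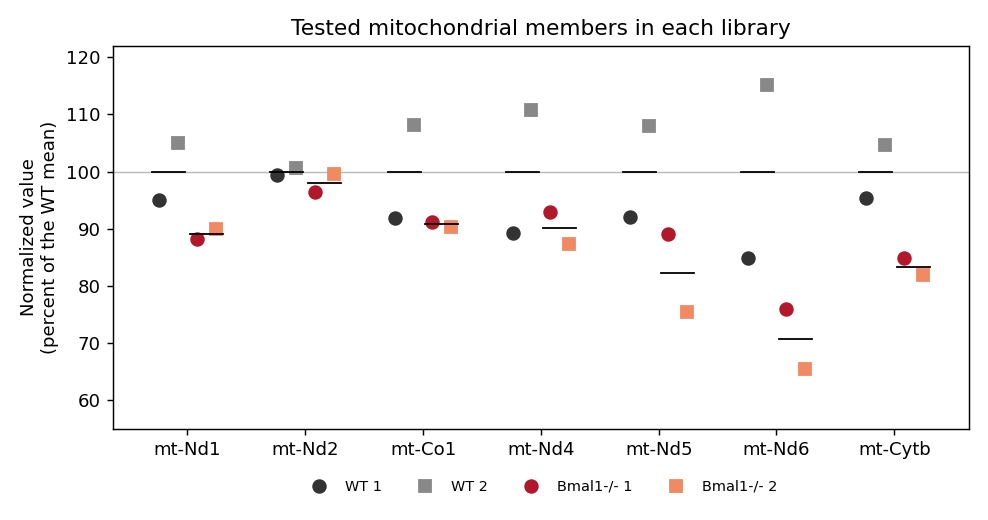
Normalized value of each of the 7 tested members in each library, as a percent of the WT mean of that gene, in genome order; circles are replicate 1, squares replicate 2, and short lines the mean of the 2 libraries. The WT replicate 2 square is the highest point of every member, and the Bmal1-/- means lie between 70.7% (mt-Nd6) and 98.0% (mt-Nd2).

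In all, 5 of the 7 tested members were called lower and 0 higher, where 28.6% of all genes tested were called lower and 24% higher. The count of 0 was the same in edgeR and DESeq2, and 0 members were higher at an unadjusted p below 0.05. None of the 7 was past 2-fold by any of these tools, where 7.21% of all genes were called past 2-fold. The normalized values of the groups did not overlap, with Bmal1-/- lower, for 5 of the 7, where 41.4% of all genes showed this. Taken as a share of the reads on genes, mt-Nd1, mt-Nd6 and mt-Cytb kept this separation, and mt-Co1 and mt-Nd5 lost it. The share of mt-Co1 was smaller in WT replicate 1 (185368 of 21737170) than in both Bmal1-/- libraries (206301 of 23329034 and 201399 of 23021702). The share of mt-Nd5 was smaller in WT replicate 1 (33278 of 21737170) than in Bmal1-/- replicate 1 (36115 of 23329034). The median log2 fold change of the 7 was −0.16, and that of all genes tested was −0.03.

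The calls rest on small differences beside a wide spread between the WT replicates. Every one of the 7 members was higher in WT replicate 2 than in WT replicate 1, by 1.01 (mt-Nd2) to 1.36 times (mt-Nd6). The median absolute log2 ratio of the WT replicates was 0.232 for the members and 0.0394 for the 856 nuclear genes whose mean value reached 5000. In the Bmal1-/- replicates the same medians were 0.0523 and 0.0345. The main test borrows its variance from genes of similar level, and these vary less between replicates than the members do. With no trend of the variance over the level, 0 of the 7 were called (1 at an unadjusted p below 0.05), and mt-Cytb came nearest with an adjusted p of 0.0621. DESeq2 on the whole reads recovered from the table called 2, mt-Cytb (adjusted p = 1.78e-07) and mt-Nd1 (adjusted p = 0.00179), and edgeR called 6, all but mt-Nd2.

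Single libraries decided some calls. With a library left out, 1 group is a single sample that is assumed to vary like the other group. Without a WT library the spread thus comes from the Bmal1-/- pair alone, in which the members lay close together, and a call made or kept in such a fit is no sign of stability, so these fits are given as values. Without WT replicate 2, the log2 fold change of mt-Co1 was −0.02 and that of mt-Nd4 was 0.01, and neither was called even so (adjusted p of 0.745 and 0.814, limma). With either Bmal1-/- library left out, mt-Co1 was not called (adjusted p of 0.116 and 0.159, limma). Without Bmal1-/- replicate 2, mt-Nd5 was at −0.16 (adjusted p = 0.0605, limma), and without WT replicate 2 it was at −0.17. The log2 fold changes of mt-Nd1, mt-Nd6, mt-Cytb and mt-Nd4 were −0.24, −0.71, −0.33 and −0.30 without WT replicate 1. Without WT replicate 2 those of mt-Nd1, mt-Nd6 and mt-Cytb were −0.09, −0.27 and −0.20.

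**Figure D3:**
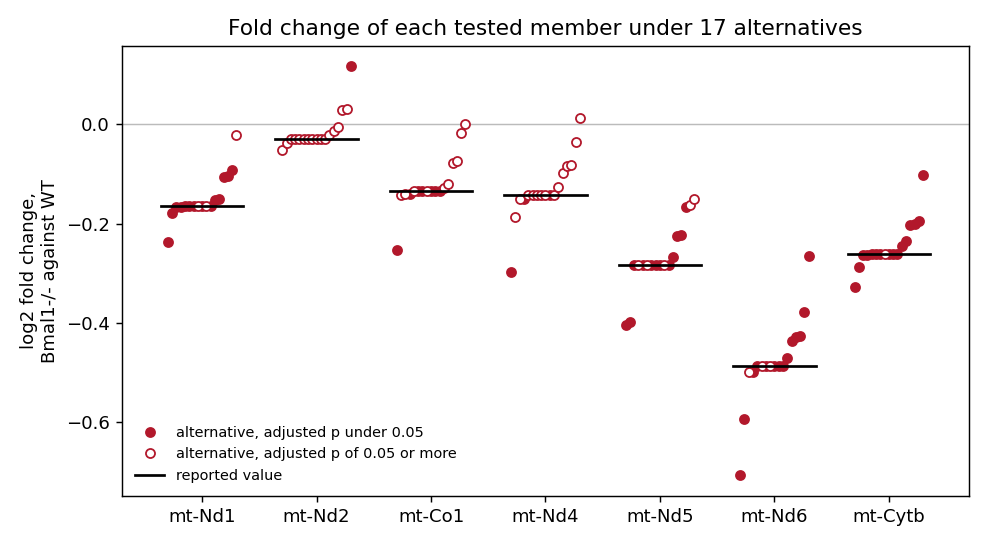
log2 fold change (Bmal1-/- against WT) of each tested member under each of 17 alternative settings (filled, adjusted p below 0.05; open, not), 4 of which leave out a library, with the reported value as a line. mt-Nd6, mt-Nd5, mt-Cytb and mt-Nd1 stay below 0 under every alternative, while mt-Nd2 and mt-Nd4 reach 0.12 and 0.01.

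The members together took 1.95% (95% Wilson interval 1.94 to 1.96) and 2.24% (2.24 to 2.25) of the reads on genes in WT. They took 1.96% (1.96 to 1.97) and 1.91% (1.91 to 1.92) in Bmal1-/-. These intervals cover counting error only and are far narrower than the gap between the WT replicates. WT replicate 2 stood above the other 3 libraries, which lay between 1.91% and 1.96%. The difference of the means was −0.158 percentage points (exact permutation test, 2-sided, p = 0.667, where 0.333 is the smallest p that 2 against 2 libraries can give). Left out in turn, WT replicate 1 and WT replicate 2 gave differences of −0.304 and −0.0126 percentage points.

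Within the reads of the members, mt-Co1 took the largest part, 43.7% and 44.9% in WT and 45.1% and 45.7% in Bmal1-/-. mt-Nd1 took between 16.7% and 17.4% in all 4 libraries, and mt-Cytb 16.3% and 15.6% in WT and 15.1% and 14.9% in Bmal1-/-. mt-Nd6 took 1.77% and 2.10% in WT and 1.65% and 1.46% in Bmal1-/-, groups that did not overlap (difference −0.384 percentage points, exact permutation test, 2-sided, p = 0.333, the smallest possible). When the libraries were scaled to equal totals of the members, 0 of the 7 members were called in limma, where 28.8% of all genes were. At an unadjusted p below 0.05 the count was 1, and edgeR gave the same counts of 0 and 1. This scaling moved the median log2 fold change of all genes from −0.03 to 0.14. On it mt-Nd6 had a log2 fold change of −0.32 (adjusted p = 0.0745) and mt-Nd2 one of 0.14 (adjusted p = 0.496), while mt-Nd5, mt-Cytb, mt-Nd1, mt-Nd4 and mt-Co1 lay between −0.11 and 0.04. This scaling puts the gap between the WT replicates in the share of reads on the members (1.95% and 2.24%) into the values of every gene. The SE of every member was larger than in the main test (mt-Nd2 0.137 against 0.037, mt-Co1 0.133 against 0.054). The count of 0 called with all 4 libraries thus cannot show whether the members changed unequally. On this scale mt-Nd6 was at −0.44 without WT replicate 1 and at −0.19 without WT replicate 2, and mt-Nd2 at 0.23 and 0.05, in fits whose spread comes from the Bmal1-/- pair alone.

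Of the other 27 genes on the mitochondrial chromosome, mt-Rnr1, mt-Rnr2 and mt-Tp were above the floor. mt-Rnr2, the large ribosomal RNA, had 3946 and 3952 in WT and 4649 and 4933 in Bmal1-/-, and was higher in Bmal1-/- by 0.28 ± 0.04 on the log2 scale (adjusted p = 1.59e-05). Its adjusted p was at most 0.037 under the 17 alternatives. Scaled to the total of the members, its log2 fold change was 0.45 (adjusted p = 0.00723). The small ribosomal RNA mt-Rnr1 had 2817 and 2940 in WT and 2641 and 2806 in Bmal1-/- (log2 fold change −0.08, adjusted p = 0.158). Both rRNAs were below every tested member per kb in WT, at 3014 for mt-Rnr1 and 2496 for mt-Rnr2, in libraries made with a kit for mRNA. mt-Tp, the only one of 22 tRNA genes above the floor, had 383 and 414 in WT and 349 and 361 in Bmal1-/- (log2 fold change −0.17, adjusted p = 0.102).

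The end of a mitochondrial mRNA decides whether its poly(A) tail is needed to complete the stop codon, and such libraries are made from RNA with poly(A) tails. The last bases of the 3 members whose annotated gene ends in a lone T are shown, with that letter of the stop codon in capitals:
mt-Co3 (chrM:9370-9390): ccatttattgatgaggatctT
mt-Nd4 (chrM:11524-11544): taattacaggcctgacaataT
mt-Cytb (chrM:15268-15288): aaatactaaaattatatccaT
The other 7 members are annotated with a whole stop codon. In mt-Nd1 and mt-Nd2 this is TAG, and its last bases are also the first of the next tRNA gene on that strand, mt-Ti from base 3706 (mt-Nd1 ends at 3707) and mt-Tw from base 4950 (mt-Nd2 ends at 4951), so an mRNA cut at the start of the tRNA would also end in a lone T. No comparison was drawn between members by their ends.

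The nuclear genes whose products assemble with the members were examined on a list of 77 subunits and associated proteins of complexes I, III, IV and V. Of 75 tested, 69 were called lower and 0 higher, with a median log2 fold change of −0.31. Over all genes tested, 28.6% were called lower and 24% higher, with a median of −0.03. The count of higher subunits was also 0 in edgeR and DESeq2 and at an unadjusted p below 0.05. By complex, 33 of 36 were lower in complex I (median −0.29), 9 of 9 in complex III (−0.26), 11 of 14 in complex IV (−0.32) and 16 of 16 in complex V (−0.34). For the members the corresponding values were −0.49 to −0.03 for the 5 of complex I, −0.26 for mt-Cytb and −0.14 for mt-Co1. Both sets of values come from the same 4 libraries, and their difference was not tested.

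In complex I, Ndufa5 had 912 and 943 in WT and 708 and 619 in Bmal1-/-, with a log2 fold change of −0.49. Ndufb4 and Ndufc2 fell by 0.46 and 0.42 on the log2 scale. In complex III, Uqcrh, the hinge protein beside cytochrome c1, had 4344 and 4610 in WT and 3036 and 3041 in Bmal1-/-, a log2 fold change of −0.56, the lowest among the 75. Uqcrfs1, the Rieske iron-sulfur protein of complex III, fell by 0.34 on the log2 scale. In complex IV, Cox7a2, Cox5b and Cox7c fell by 0.46, 0.42 and 0.40 on the log2 scale. In complex V, Atp5e, a subunit of the central stalk, had 1988 and 2069 in WT and 1473 and 1408 in Bmal1-/-, a log2 fold change of −0.49. The catalytic subunit Atp5b had 63060 and 63135 in WT and 58043 and 56925 in Bmal1-/-, a log2 fold change of −0.13, the smallest fall called in complex V. It was not called without Bmal1-/- replicate 2 (adjusted p = 0.0618, limma). The count of nuclear subunits called lower was between 53 (no trend) and 69 under the 17 alternatives.

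**Figure D4:**
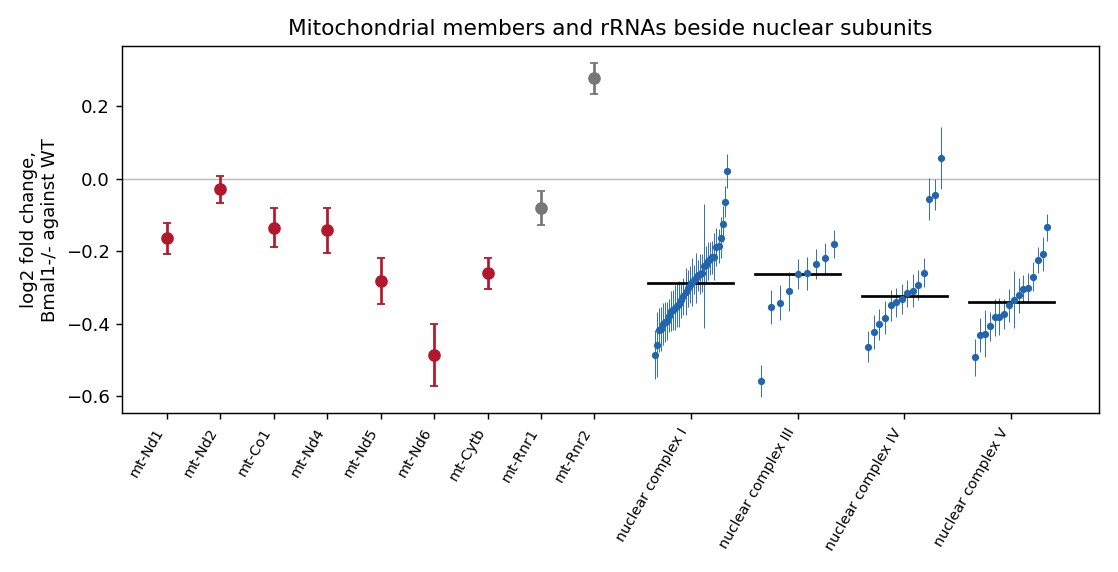
log2 fold change (Bmal1-/- against WT, limma, with standard errors) of the 7 tested members in red and the 2 mitochondrial rRNAs in grey, beside the tested nuclear subunits of complexes I, III, IV and V in blue, sorted within each complex, with black lines at the medians. The members lie between −0.49 and −0.03, and the medians of the nuclear subunits between −0.34 and −0.26.

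Genes that act on the mitochondrial genome and its RNA were read from 4 further lists. Their counts are read against all genes tested, of which 28.6% were called lower and 24% higher. For transcription, 5 of 16 tested were called lower and 1 higher, a share of lower genes close to that of all genes. Tfam, which packages the mitochondrial genome and starts its transcription, had 2181 and 2239 in WT and 1670 and 1901 in Bmal1-/-, a log2 fold change of −0.31 (adjusted p = 8.87e-05, limma). The elongation factor Tefm, listed as 1110002N22Rik, fell by 0.45 on the log2 scale, Mrpl12, a ribosomal protein that also binds Polrmt, by 0.52, and Tfb1m, an rRNA methyltransferase, by 0.31. Tfb1m was not called without Bmal1-/- replicate 1 (adjusted p = 0.0768, limma). Gabpa, a nuclear factor that activates many respiratory genes, rose by 0.17, but was not called without WT replicate 2 (0.11, adjusted p = 0.0546, limma) or without Bmal1-/- replicate 2 (0.13, adjusted p = 0.105, limma). The polymerase Polrmt had 939 and 903 in WT and 984 and 876 in Bmal1-/- and was not called (log2 fold change 0.01, adjusted p = 0.89), nor was the initiation factor Tfb2m (−0.07, adjusted p = 0.59).

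For processing and stability of mitochondrial RNA, 18 of 37 were called lower and 0 higher (0 also in edgeR, in DESeq2 and at an unadjusted p below 0.05), with a median of −0.15. Components of the RNase P that frees mRNAs at the 5′ ends of tRNAs were among them: Hsd17b10 fell by 0.42 and Prorp, listed as 1110008L16Rik, by 0.39 on the log2 scale. Slirp, listed as 1810035L17Rik, which stabilises mitochondrial mRNAs in a complex with Lrpprc, had 519 and 549 in WT and 426 and 406 in Bmal1-/- (−0.36, adjusted p = 0.00044, limma). Its partner Lrpprc had 3963 and 3822 in WT and 4162 and 4080 in Bmal1-/-, at a log2 fold change of 0.08 that was not called (adjusted p = 0.11, limma).

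For replication of mitochondrial DNA, 9 of 21 were lower and 2 higher, with a median of −0.14, and with equal library totals 4 were lower and 4 higher. The single-strand binding protein Ssbp1 fell by 0.35 and the helicase Twnk, listed as Peo1, by 0.15 on the log2 scale. Twnk was not called without WT replicate 1 (adjusted p = 0.11, limma) or without Bmal1-/- replicate 2 (adjusted p = 0.169, limma). The ligase Lig3, which also serves the nucleus, rose by 0.37. The polymerase Polg was not called (0.11, adjusted p = 0.091, limma). For translation in mitochondria, with ribosomal proteins left out, 19 of 36 were lower and 1, the tRNA synthetase Mars2 (0.20), was higher, a call lost without any one of the libraries except WT replicate 2 (0.12 without WT replicate 1). Lars2, the leucyl-tRNA synthetase, had 10426 and 7674 in WT and 4408 and 4264 in Bmal1-/-, a log2 fold change of −1.04, the only one of the 4 lists past 2-fold, which was −0.82, below 2-fold, without WT replicate 1. Over the 4 lists together, 50 of 109 genes were lower and 4 higher, with a median of −0.14. When TMM was replaced by equal library totals these counts were 33 lower and 9 higher, and over all genes 3194 lower and 4200 higher in place of 4151 and 3488.

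Genes that respond to mitochondrial stress moved in both directions. Of 24 tested, 10 were called lower and 2 higher, where 28.6% and 24% of all genes were, with a median of −0.09. The co-chaperonin Hspe1 fell by 0.36 on the log2 scale, the protease Clpp by 0.42, and Trib3, a target of the integrated stress response, by 0.45. Fgf21, a secreted factor induced by mitochondrial dysfunction in other tissues, had 4.21 and 4.25 in WT and 21.6 and 15.3 in Bmal1-/- (log2 fold change 1.87, adjusted p = 0.0013, limma), values of few reads. Atf3 had 129 and 117 in WT and 169 and 168 in Bmal1-/- and rose by 0.46.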

How the data were processed

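According to the study's methods and the submitters' processing notes, stranded mRNA libraries were read as paired 75-bp reads, trimmed (cutadapt 1.9.1) and aligned to mm9 (STAR 2.5.2b). The deposited table holds a normalized signal: the authors divided the count of each gene by a TMM factor of its library. All values were whole multiples of the value of 1 read (100%, tolerance 0.01), so whole reads were recovered. The counter, annotation, strand setting and handling of reads with several matches are not given in the sources used here.

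Values were tested with limma 3.58.1 (R 4.3.3; lmFit, eBayes with trend) on log2(value + 1) with no covariate, for genes whose mean reached 10. This scale understates changes of low genes. DESeq2 1.42.0, the tool of the study, and edgeR 4.0.16 (quasi-likelihood) were run on the recovered reads. The 17 alternatives were other filters, pseudocounts, scalings and tools, a replicate block, each library left out, and nuclear copies added to the member they match. Nuclear copies (at least 95% identity over 200 bases) were found with BLAST+ 2.17.0 in the NCBIM37 genome with GENCODE vM1 gene positions, and windows of 75 bases were matched exactly on both strands.

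The members and the gene lists, written by hand, were chosen with earlier results of these data known. Of 246 list genes, 242 matched the table. Genes named were drawn from the members, the mitochondrial genes above the floor, the 3 highest and the 3 lowest called genes of each list, genes past 2-fold, and the core factors Polrmt, Tfam, Tfb2m, Tefm, Lrpprc, Slirp, Polg and Twnk. Replicates are biological replicates per the methods.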

Additional observations from a re-analysis of the deposited data

How the results depend on the processing

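Under the 17 alternatives to the reported fit, the log2 fold changes of the 7 tested members gave 119 values, of which 90 kept direction and side of the threshold, 22 lost the call, 3 gained one and 4 turned direction. The 4 that turned were mt-Nd2 (0.0316 with equal library totals and 0.0293 with equal nuclear totals, neither called, and 0.12 with quantile normalization, adjusted p = 0.0051) and mt-Nd4 when libraries were left out (−0.298 to 0.0132). Some settings could hardly move members with so many reads. With pseudocounts of 0.5 and 10, mt-Nd6 was at −0.4867 and −0.4862, against −0.4867 in the reported fit. The nuclear copies added at most 28.6 to the value of a tested member. The 90 values include these settings and the fits with a library left out, so their number is no measure of stability. Against 5 members called lower, the count was 1 with no filter on low values, 2 with quantile normalization (which called 1 higher), 0 with no trend and 2 in DESeq2, and 3 to 6 with each library left out, 3 without Bmal1-/- replicate 2; a lone library is there assumed to vary like the other group, so calls in those fits are no sign of stability. Over the alternatives the adjusted p ranged up to 0.0621 for mt-Cytb, 0.123 for mt-Nd6, 0.186 for mt-Nd5, 0.605 for mt-Nd1 and 1 for mt-Co1. The median of the members was −0.0353 with quantile normalization, and −0.298 (without WT replicate 1) to −0.0920 (without WT replicate 2) with each library left out. Scaled to the total of the members, mt-Nd4 ranged from −0.0288 to 0.0848 and mt-Nd1 from −0.0240 to 0.0346 with each library left out, none of them called. For the 4 lists of mitochondrial gene expression, 50 genes called lower became 29 with no filter, 33 with equal library totals, 33 with equal nuclear totals, 23 with no trend and 30 in DESeq2. The no-filter and no-trend settings change the variance each gene borrows; the cause of the other changes was not tested.

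The labels give both genotypes the experiment numbers 1 and 2. Same-numbered libraries did not deviate together over genes (correlation of deviations −0.02). Whether the numbers mark a shared experiment is not given, so a pairing by design remains unknown. With a replicate block 6 members were called lower, mt-Nd4 added (adjusted p = 0.00127, limma). A block cannot move the difference of −0.158 percentage points in the share of reads, since each number has 1 library per genotype. Between the libraries numbered 1 this difference was 0.0109 percentage points, and between those numbered 2 it was −0.327. Depth did not limit the 7 tested members, which had 6415 reads or more in every library.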
